A study of Rattus norvegicus with 16 samples.

Results

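A set of 9 genes that handle heme and iron was described across 16 arrays of sorted cells from cultures of rat olfactory mucosa, the smell-sensing lining of the nose. They were Cd163, Hp, Hmox1, Blvrb, Slc11a1, Slc40a1, Tfrc, Fth1 and Ftl1, that is 9 of the 20571 genes tested. Probes were taken by gene symbol, and Ftl1 by its older symbol Ftl, which gave 13 probes, and all 9 genes passed the filter on dim probes. The genes were chosen with results of these arrays known, so their levels and differences are a description without a test.

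The 4 populations were TRKA-TGF, TRKA, CD90 and p75, with 4 biological replicates each and 1 array per replicate. Per the labels, the cultures were of male Fischer rat tissue, and flow cytometry gave a sort purity of 93 to 97%. CD90, p75 and TRKA cells shared a culture protocol, and TRKA-TGF cells were TRKA cells induced with TGF-a, a growth factor, by a separate protocol. CD90 is the surface protein encoded by Thy1 and p75 the neurotrophin receptor encoded by Ngfr. The labels do not say whether replicates of different populations share animals or cultures. Values below measure the spread between these samples.

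Hemoglobin set free from red cells is bound by haptoglobin (Hp), and macrophages take up the complex through the scavenger receptor CD163. Heme oxygenase 1 (Hmox1) splits the heme into biliverdin, carbon monoxide and iron, and biliverdin reductase B (Blvrb) reduces flavins and some isomers of biliverdin. The transporter NRAMP1 (Slc11a1) carries metal out of the phagosome, ferritin heavy and light chains (Fth1, Ftl1) store iron, ferroportin (Slc40a1) exports it, and transferrin receptor 1 (Tfrc) imports iron bound to transferrin. Macrophages that clear red cells in spleen and liver are known for expressing most of these genes.

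Each level rests on a 60-base probe, and a few are shown, from genes with wide gaps between populations or with a partner probe that disagreed. They are printed as the array files give them, with positions on the rn4 assembly (RGSC v3.4) from the same files. Cd163 (Entrez 312701) was read at chr4:160423704-160423763 on the plus strand. Hp (24464) was read at chr19:39443156-39443215 on the minus strand, and Hmox1 (24451) at chr19:13969336-13969395 on the plus strand. The Slc11a1 (316519) probe lies on the plus strand and covers chr9:73723371-73723827, a span of 457 bases that is wider than the probe, so it crosses an intron. One of the Tfrc (64678) probes, on the minus strand, likewise covers chr11:69978846-69980500, a span of 1655 bases.
Cd163: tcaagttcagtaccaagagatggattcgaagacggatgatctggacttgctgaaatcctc
Hp: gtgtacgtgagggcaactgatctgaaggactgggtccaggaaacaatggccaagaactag
Hmox1: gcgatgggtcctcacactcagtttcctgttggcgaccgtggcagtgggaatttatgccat
Slc11a1: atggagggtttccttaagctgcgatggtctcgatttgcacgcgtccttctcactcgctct
Tfrc: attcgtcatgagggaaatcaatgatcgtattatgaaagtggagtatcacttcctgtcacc

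Promoter sequence (250 bases before the gene start, RefSeq, GRCr8) was at hand for 4 of the 9 genes, Cd163, Slc40a1, Tfrc and Blvrb. Both strands were searched for TGANTCA (AP-1 type), TGACNNNGC (antioxidant response type), AGGAAGT (PU.1 type) and TATAA. Of 33469 promoters of the same length, 6.34% held the first, 10.1% the second, 7.08% the third and 24.0% the last. Slc40a1 held TATAA 54 to 50 bases before its start, Tfrc held AGGAAGT 22 to 16 bases before its start, and the other letters searched were not in these windows. The promoters of Cd163 (chr4:158770524-158770773, plus strand, 40.8% G and C) and Slc40a1 (chr9:55543461-55543710, minus strand, 74.0% G and C) are shown because these genes differed in how they stood between the TRKA populations. Capitals mark the TATAA.
Cd163 promoter: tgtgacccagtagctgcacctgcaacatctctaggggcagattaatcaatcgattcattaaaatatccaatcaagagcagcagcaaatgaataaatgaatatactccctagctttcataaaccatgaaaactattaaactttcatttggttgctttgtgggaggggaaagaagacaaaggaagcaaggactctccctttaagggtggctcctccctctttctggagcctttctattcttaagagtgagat
Slc40a1 promoter: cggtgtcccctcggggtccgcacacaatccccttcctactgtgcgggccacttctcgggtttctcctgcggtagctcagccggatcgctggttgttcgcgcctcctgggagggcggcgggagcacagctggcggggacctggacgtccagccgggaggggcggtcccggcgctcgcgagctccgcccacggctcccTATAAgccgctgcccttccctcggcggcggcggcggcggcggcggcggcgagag

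A level is the log2 signal of a probe minus the 75th percentile of all probes on that array, so 0 is that percentile. The lowest signal well above background stood between −6.31 and −5.16, depending on the array. TRKA arrays were the dimmest, with 54.5 ± 2.60% of spots well above background (SD, n = 4), against 68.4 ± 2.08% on TRKA-TGF, 71.3 ± 0.801% on CD90 and 70.02 ± 1.31% on p75 arrays. Replicates correlated across probes at r of 0.736 to 0.761 in TRKA and 0.835 to 0.908 in the other populations. TRKA and p75 arrays shared a slide, and TRKA-TGF and CD90 arrays shared the other. Each of these pairs was thus compared within a slide, although population and slide row cannot be told apart there. In the other comparisons, TRKA-TGF versus TRKA included, slide and population cannot be told apart.

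The sort genes Thy1 and Ngfr were highest in CD90 and p75 cells. The marker lists were chosen with earlier results of these data known. Macrophage markers separated the TRKA populations from CD90 and p75 cells. All 19 were well above background in both TRKA populations, and their summed signal, each taken over the 75th percentile of its array, was 413 to 438 in TRKA-TGF and 814 to 1008 in TRKA cells, against 37.7 to 52.9 in CD90 and 10.2 to 20.3 in p75 cells. In limma all 19 were called higher in TRKA than in p75 cells, and in TRKA-TGF versus TRKA 0 were called higher and 4 lower. CD90 arrays had 17 to 19 of these markers above background. In CD90 versus p75, 10 were called higher and 0 lower, where 7.25% of all genes were called.

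Other cell types were checked the same way. Red cell markers (8 on the array) summed to 1.97 to 2.26 in TRKA-TGF and 1.87 to 2.97 in TRKA cells, against 1.17 to 1.98 in CD90 and 1.05 to 1.33 in p75 cells. Of 4 tested, Klf1 was called higher in TRKA than in p75 cells, by 1.16 (limma adjusted p = 0.00170), while the hemoglobin chain Hbb was at background on every TRKA-TGF and TRKA array. Neutrophil markers (11) summed to 0.134 to 0.709 in TRKA-TGF and 0.181 to 8.03 in TRKA cells, against 0.128 to 0.636 in CD90 and 0.0654 to 0.185 in p75 cells. Mpo, Elane and Cxcr2 were at background on all TRKA-TGF and TRKA arrays, Ngp was above it on 4 TRKA arrays and Camp and Mmp9 on 3, and 0 of 5 tested were called between TRKA and p75.

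Fibroblast markers (12) summed to 4.49 to 15.4 in TRKA-TGF and 106 to 157 in TRKA cells, against 491 to 560 in CD90 and 198 to 215 in p75 cells. In TRKA cells 5 of them, Dcn, Lum and Fbn1 among these, were at background, but the collagen Col1a1 averaged 6.89 there against 7.23 in p75 cells, and Col1a2 and Col3a1 were above background on all 4 TRKA arrays. Col1a1 fell by 4.26 in TRKA-TGF versus TRKA (limma adjusted p = 3.42e-07). Glial markers, which include Ngfr, summed to 2.71 to 3.09 in TRKA-TGF and 0.387 to 1.10 in TRKA cells, against 4.28 to 5.56 in CD90 and 113 to 121 in p75 cells. Epithelial markers summed to 0.148 to 0.471 in TRKA-TGF and 0.150 to 1.20 in TRKA cells, against 0.604 to 1.64 in CD90 and 0.535 to 1.98 in p75 cells. Cell cycle genes summed to 3.50 to 7.91 in TRKA-TGF and 18.4 to 43.7 in TRKA cells, against 19.4 to 27.5 in CD90 and 9.04 to 12.9 in p75 cells. The part of these marker differences in the levels below was not tested. In sorted pools, fewer cells of a type and less RNA per cell cannot be told apart.

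**Figure D1:**
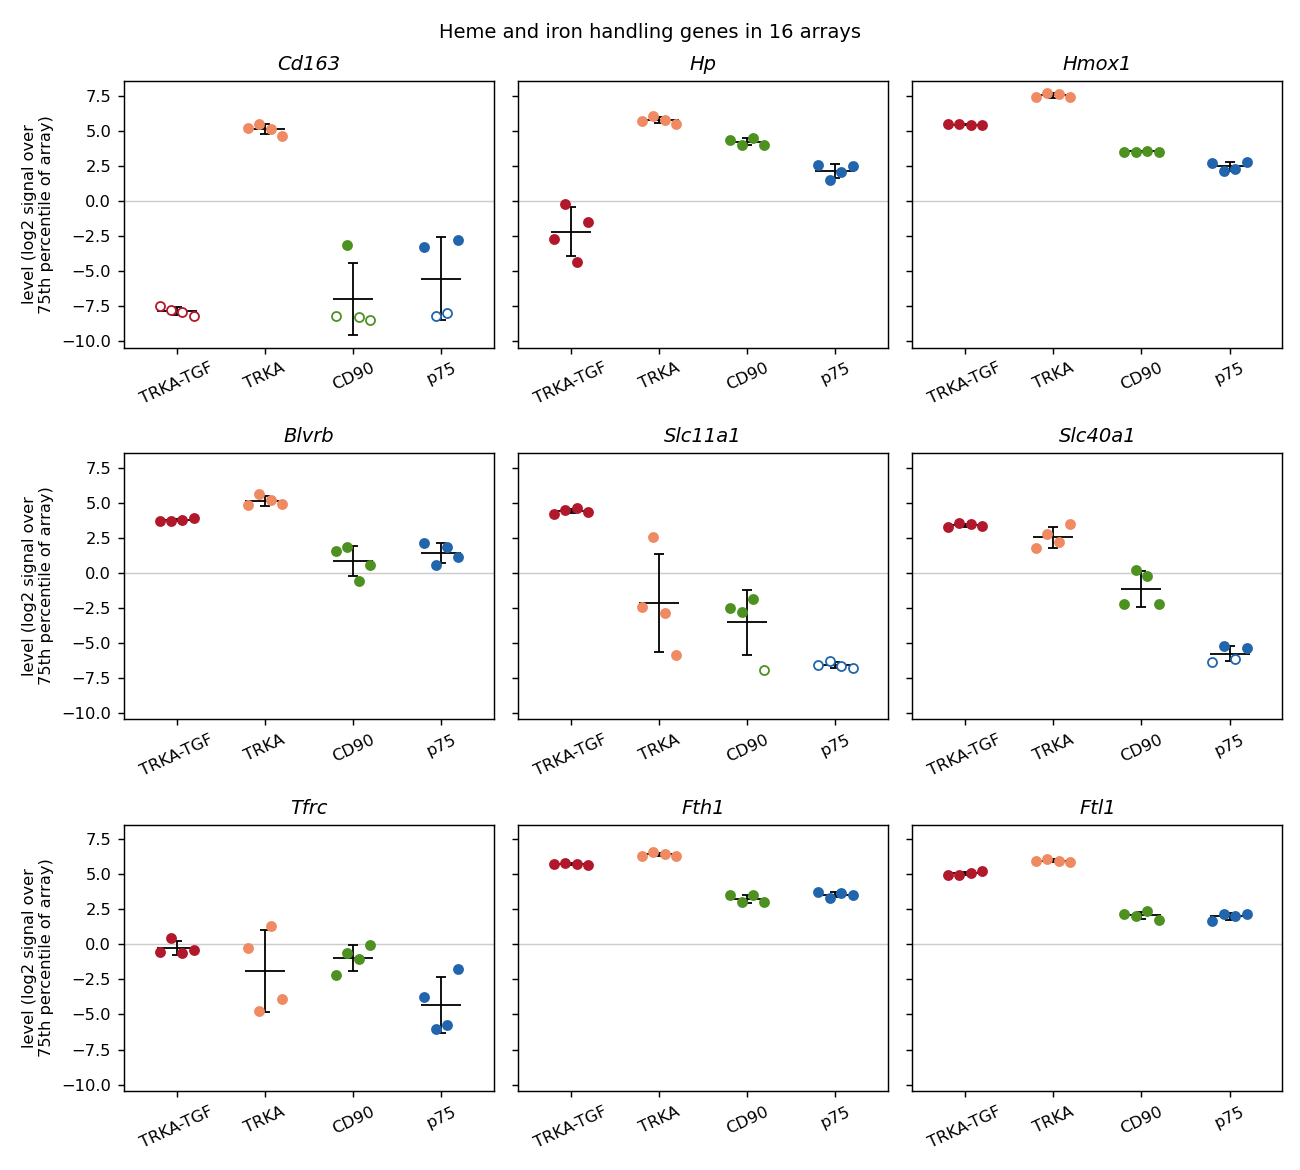
Levels of the 9 genes on 16 arrays (y axis: log2 signal over the 75th percentile of the array; x axis: population; 1 point per array, in replicate order; open points were not well above background; bars are the mean ± SD, n = 4). Cd163 stands near 5 in TRKA cells alone, Slc11a1 stands above 4 in TRKA-TGF cells alone, and Fth1 and Ftl1 are high in both TRKA populations.

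Among the 9 genes, Cd163, the receptor for hemoglobin bound to haptoglobin, gave the widest gap between populations. Cd163 stood at −7.49, −7.79, −7.95 and −8.20 on the TRKA-TGF arrays, where it was not well above background, against 5.20, 5.47, 5.14 and 4.64 on the TRKA arrays. In CD90 cells it stood at −8.19, −3.13, −8.26 and −8.49 and was above background on 1 array, and in p75 cells at −3.27, −8.25, −7.99 and −2.77 and above background on 2. Only the TRKA arrays were high, and the other 3 populations overlapped one another. The median processed signal was 4.09 in TRKA-TGF against 27971 in TRKA cells. Cd163 was at least 1889.5-fold lower in TRKA-TGF than in TRKA cells, taking the lowest signals above background as the floor in TRKA-TGF. Its difference was 10.68 ± 1.33 in TRKA versus p75 (log2, SE of the fit). Over 22 settings of the processing and fit, the reported one included, that difference ranged from 8.57 to 11.62.

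Hp, the plasma protein that CD163 recognises together with hemoglobin, stood at −2.73, −0.25, −4.37 and −1.50 on the TRKA-TGF arrays and at 5.72, 6.08, 5.74 and 5.51 on the TRKA arrays. It stood at 4.35, 4.01, 4.49 and 4.00 in CD90 cells and at 2.55, 1.48, 2.09 and 2.48 in p75 cells. The order of levels was therefore TRKA, CD90, p75 and TRKA-TGF, and no neighbours overlapped. The differences of 1.55 in TRKA versus CD90 and 2.06 in CD90 versus p75 were not called. Each was called in 2 of the 22 settings, the reported one included. Unlike Cd163, Hp was well above background on all 16 arrays, and the lowest arrays were the TRKA-TGF ones. The difference was −7.98 ± 0.64 in TRKA-TGF versus TRKA and −6.43 ± 0.64 in TRKA-TGF versus CD90, which shared a slide.

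Of the heme breakdown genes, Hmox1 followed a graded order and Blvrb did not. Hmox1, which opens the heme ring, stood at 5.45, 5.50, 5.44 and 5.39 on the TRKA-TGF arrays and at 7.41, 7.69, 7.60 and 7.38 on the TRKA arrays. In CD90 cells it stood at 3.51, 3.52, 3.55 and 3.52 and in p75 cells at 2.70, 2.13, 2.29 and 2.76. Each population was separated from the next, in the order TRKA, TRKA-TGF, CD90 and p75. Hmox1 had 10 spots per array, 9 of them used on TRKA replicate 3, and the SD between spots of an array, which is technical, was 0.022 to 0.068. The difference was −2.07 ± 0.21 in TRKA-TGF versus TRKA, 5.05 ± 0.21 in TRKA versus p75 (33.1-fold) and 1.92 ± 0.21 in TRKA-TGF versus CD90. Over the 22 settings the TRKA versus p75 difference ranged from 4.16 to 5.15.

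Blvrb, the flavin and biliverdin reductase, stood at 3.69, 3.71, 3.78 and 3.87 in TRKA-TGF cells and at 4.81, 5.60, 5.15 and 4.89 in TRKA cells. CD90 arrays read 1.54, 1.82, −0.60 and 0.54 and p75 arrays 2.09, 0.52, 1.84 and 1.09. Both TRKA populations were above the other populations without overlap, TRKA was the higher of the pair, and CD90 and p75 overlapped. The difference was −1.35 ± 0.48 in TRKA-TGF versus TRKA, which was not called and was −0.50 with quantile normalization. In TRKA versus p75 it was 3.73 ± 0.48, and 2.84 to 4.26 over the 22 settings. A further Blvrb probe gave −1.42 and 4.26 for the same comparisons.

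Among the transporters, Slc11a1 and Slc40a1 were higher in TRKA-TGF than in the CD90 and p75 populations, whereas Tfrc was not set apart from CD90. Slc11a1, the phagosomal metal transporter, stood at 4.21, 4.49, 4.60 and 4.32 on the TRKA-TGF arrays and at −2.49, 2.55, −2.91 and −5.89 on the TRKA arrays. It stood at −2.51, −2.79, −1.87 and −6.98 in CD90 cells, the last not above background, and at −6.59, −6.32, −6.65 and −6.78 in p75 cells, none above background. TRKA-TGF arrays were close together and above all others. TRKA arrays covered a range of over 8 log2 units and overlapped CD90. Slc11a1 was at least 1426-fold higher in TRKA-TGF than in p75 cells and at least 14.8-fold higher in TRKA than in p75 cells, a bound that fell to 4.97-fold without TRKA replicate 2. The bound is for the mean of the TRKA arrays. The processed signal on TRKA replicate 4, 13.8, lay within the p75 range of 11.6 to 17.1. The call in TRKA versus p75 held in 16 of 22 settings. In TRKA-TGF versus TRKA the difference was 6.59 ± 1.41.

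Slc40a1, the cellular iron exporter, stood at 3.29, 3.52, 3.44 and 3.31 in TRKA-TGF cells and at 1.73, 2.75, 2.15 and 3.44 in TRKA cells. It stood at −2.23, 0.17, −0.24 and −2.24 in CD90 cells and at −6.36, −5.25, −6.14 and −5.41 in p75 cells, where 2 arrays were above background. TRKA-TGF and TRKA overlapped at the top, CD90 came next and p75 last, each without overlap with its neighbour below. The difference was 0.87 ± 0.55 in TRKA-TGF versus TRKA, 8.31 ± 0.55 in TRKA versus p75 and 4.53 ± 0.55 in TRKA-TGF versus CD90.

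Tfrc, the importer of iron bound to transferrin, stood at −0.52, 0.46, −0.61 and −0.41 in TRKA-TGF cells and at −0.26, −4.76, 1.32 and −3.90 in TRKA cells. CD90 arrays read −2.20, −0.61, −1.01 and −0.01, and p75 arrays −3.72, −6.02, −5.74 and −1.76. TRKA arrays were spread over the range of all populations, and the 1 pair without overlap was TRKA-TGF and p75. The difference was 1.63 ± 1.23 in TRKA-TGF versus TRKA, 2.41 ± 1.23 in TRKA versus p75 and 4.04 ± 1.23 in TRKA-TGF versus p75, which was called in 11 of 22 settings.

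Slc40a1 and Tfrc each had a further probe, and those probes differed in part from the first. The second Slc40a1 probe, 648 bases away on the genome, stood at 2.90, 2.95, 2.60 and 2.96 in TRKA-TGF cells and at 0.57, 0.86, 1.83 and −1.66 in TRKA cells. With it TRKA-TGF was above TRKA without overlap, by 2.46, while TRKA overlapped CD90. In TRKA versus p75 it gave 4.69 ± 0.77, against 8.31 ± 0.55 with the first probe. The second Tfrc probe, whose sequence is printed above and which lies 2218 bases from the first, stood at −3.12, −1.31, −1.42 and −2.33 in TRKA-TGF cells and was not above background on any TRKA array. With it Tfrc was at least 10.67-fold higher in TRKA-TGF than in TRKA cells, and at least 9.33-fold lower in TRKA than in p75 cells, which is the opposite sign to the first probe. In TRKA-TGF versus p75 it gave 0.19, with overlap. The order of Tfrc levels thus depended on the probe.

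**Figure D2:**
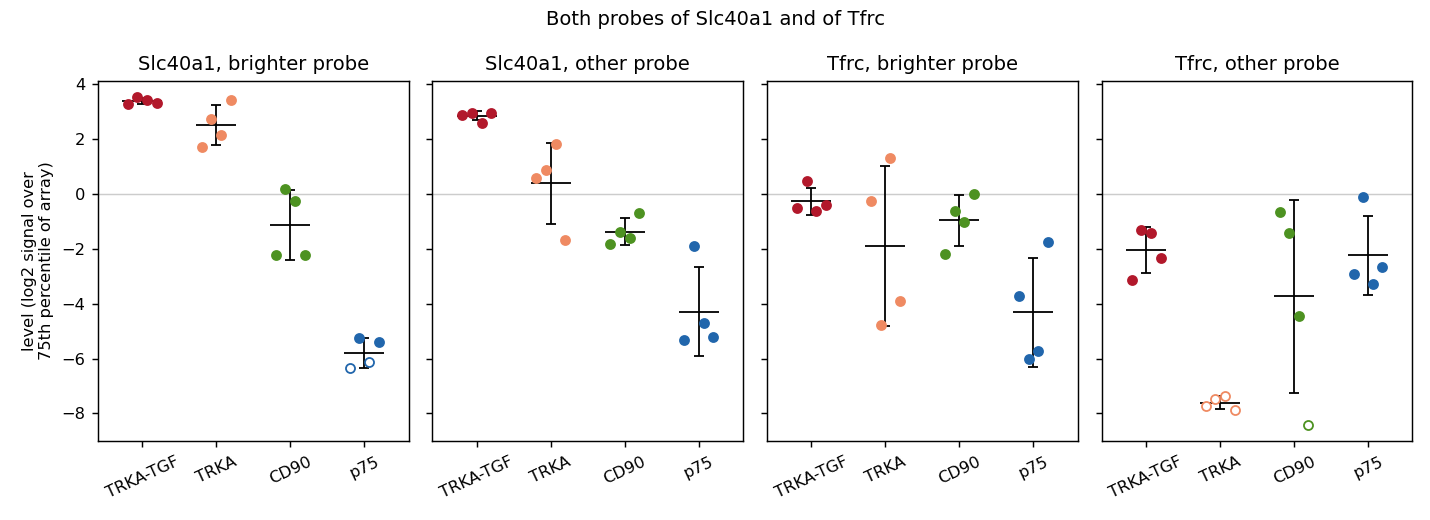
Levels of both probes of Slc40a1 and of Tfrc (y axis: log2 signal over the 75th percentile of the array; x axis: population; 1 point per array; open points were not well above background; bars are the mean ± SD, n = 4). The second Tfrc probe is at background on all 4 TRKA arrays, near −7.61 on average, while the brighter probe is spread there.

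Iron storage genes were high in both TRKA populations with little spread. Fth1, the ferritin heavy chain, stood at 5.76, 5.79, 5.73 and 5.64 in TRKA-TGF cells and at 6.34, 6.58, 6.49 and 6.34 in TRKA cells, against 3.50, 3.01, 3.50 and 3.03 in CD90 and 3.72, 3.30, 3.66 and 3.55 in p75 cells. Ftl1, the light chain, stood at 4.97, 4.94, 5.13 and 5.23 in TRKA-TGF and at 5.95, 6.10, 5.97 and 5.90 in TRKA cells, against 2.18, 2.05, 2.36 and 1.74 in CD90 and 1.66, 2.18, 2.03 and 2.15 in p75 cells. For both chains TRKA and TRKA-TGF were above CD90 and p75 without overlap, and CD90 and p75 overlapped each other. TRKA versus p75 gave 2.88 ± 0.21 for Fth1 (7.36-fold) and 3.98 ± 0.22 for Ftl1 (15.7-fold), and TRKA-TGF versus CD90 gave 2.47 ± 0.21 and 2.99 ± 0.22. Over the 22 settings the TRKA versus p75 difference ranged from 1.98 to 2.99 for Fth1 and from 3.08 to 4.03 for Ftl1.

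Between the TRKA populations, Fth1 differed by −0.71 ± 0.21 and Ftl1 by −0.91 ± 0.22, and both small gaps depended on the scaling. Fth1 was 0.09 with quantile normalization and with the authors' values and 0.05 with the 75th percentile taken over probes above background on all arrays. Ftl1 was −0.08 with quantile normalization and −0.15 with that percentile. The median of all genes in this comparison was 0.19 here, −0.14 with quantile normalization, −0.16 with normexp background correction and 0.96 with that percentile. Relative to these medians Fth1 stood at −0.90, 0.23, −0.48 and −0.90. The signs of the Cd163, Hp, Hmox1, Blvrb and Slc11a1 differences were the same under the 4 other scalings, and Hmox1 ranged from −2.07 to −1.31. Of these scalings, the authors' values nearly repeat quantile normalization.

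**Figure D3:**
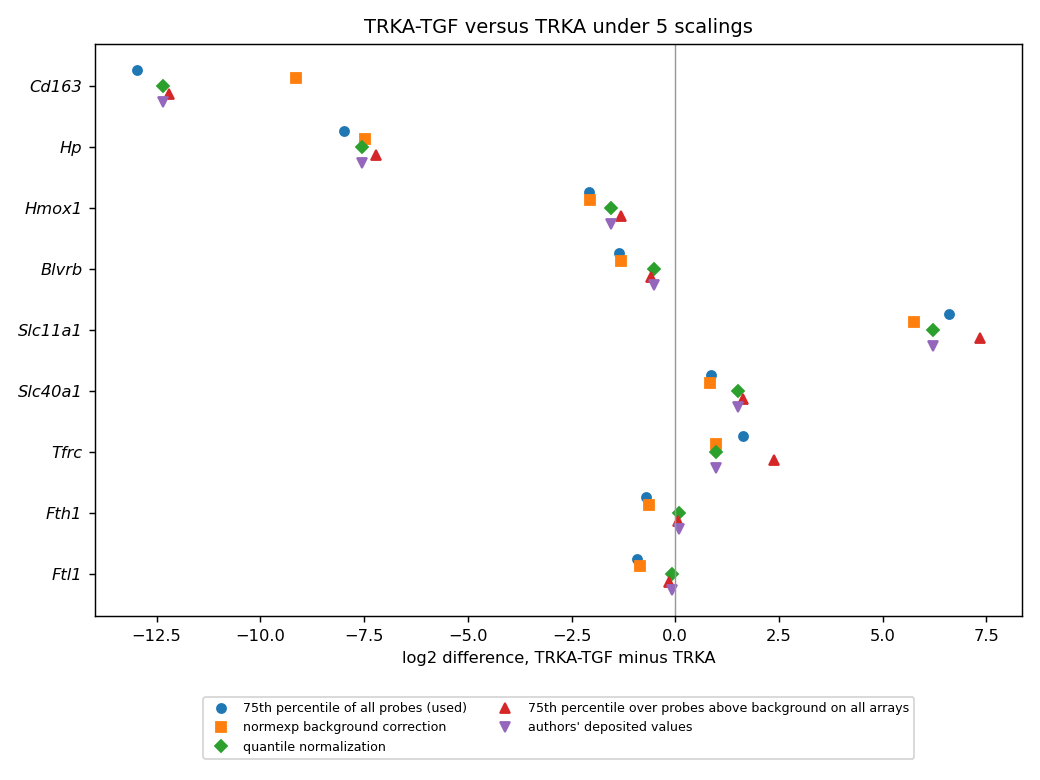
Differences of the 9 genes in TRKA-TGF versus TRKA under 5 scalings (x axis: log2 difference, TRKA-TGF minus TRKA; 1 symbol per scaling). Fth1 lies at −0.71 with the scaling used and at 0.09 with quantile normalization, while Cd163 and Hp stay far below 0 and Slc11a1 far above it under every scaling drawn.

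Ferritin genes have near-identical copies, so the ferritin values may mix several. The RefSeq gene table lists 21 genes named after Ftl1, of which 14 are pseudogenes, and 6 named after Fth1, of which 5 are pseudogenes. The Ftl1 probe shares a run of 53 bases with the probe of LOC100362384 and 41 bases with a probe that has no gene name, and the files place it on chromosome X. LOC688591, named ferritin light chain 1-like, averaged 6.68 ± 0.08 in TRKA-TGF and 6.65 ± 0.15 in TRKA cells, against 4.74 ± 0.08 in CD90 and 4.92 ± 0.18 in p75 cells (SD, n = 4 each). Its probe shares at most 6 bases in a row with the Ftl1 probe. Both Fth1 probes overlap by 28 bases and gave −0.71 and −0.70 in TRKA-TGF versus TRKA.

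**Figure D4:**
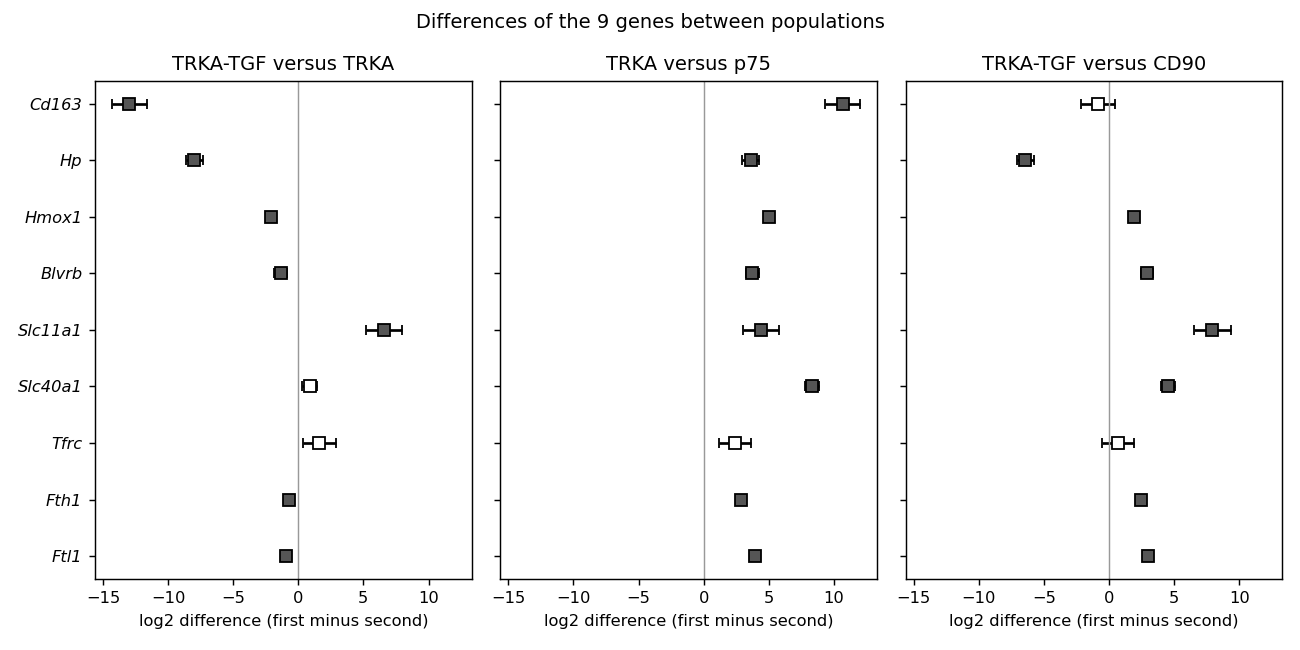
Differences of the 9 genes in 3 comparisons (x axis: log2 difference, first population minus second; squares are the fitted difference, bars its SE; open squares mark genes whose arrays overlap between the populations). In TRKA versus p75 all 9 squares lie above 0, and in TRKA-TGF versus TRKA 6 lie below 0 and 3 above.

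Over the 9 genes, 8 were called higher and 0 lower in TRKA versus p75, where limma called 35.7% of all genes, 18.8% higher and 16.9% lower. In TRKA versus CD90, 6 were called higher and 0 lower, against 34.9% of all genes called, 18.3% higher and 16.6% lower. In TRKA-TGF versus TRKA, 1 was called higher (Slc11a1) and 5 lower, against 26.4% of all genes called, 13.5% higher and 12.9% lower. TRKA-TGF versus CD90 gave 6 higher and 1 lower (Hp), against 14.9% of all genes called, 7.72% higher and 7.19% lower. TRKA-TGF versus p75 gave 7 higher and 1 lower (Hp), against 15.1% of all genes called, 7.97% higher and 7.15% lower. CD90 versus p75 gave 2 higher (Hmox1 and Slc40a1) and 0 lower, against 7.25% of all genes called, 3.68% higher and 3.57% lower. Since the genes were chosen on these arrays, nothing is read from the counts. Comparisons that name the same population share its arrays. With the other probe of the 4 genes that have 2, chosen after seeing the data, the counts were 8 higher and 1 lower in TRKA versus p75 and 3 higher and 5 lower in TRKA-TGF versus TRKA.

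The genes whose levels ran most like each of the 9 were found by Pearson's r over the 16 arrays, which fall into 4 populations and share array brightness. Cd163 was most like LOC679715 (r = 0.978), Rpl13 (0.977) and Swi5 (0.974). Hmox1 was most like Il18, a cytokine of macrophages (0.990), followed by a pair of probes without a gene name (0.983 and 0.982). Slc40a1 was most like Itgb2, the beta chain of leukocyte integrins (0.981), RGD1560871 (0.979) and Alcam, a cell adhesion molecule (0.972). Fth1 was most like Abr (0.992), Pnp (0.990) and LOC100362384 (0.989).

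For Ftl1 the closest were the unnamed probe and LOC100362384 that share sequence with its probe (0.9999 and 0.999), and a further unnamed probe (0.996). Blvrb was most like LOC307495 (0.991), Tmem127 (0.961) and Atp6v0c, a subunit of the proton pump of lysosomes (0.958). Slc11a1 was most like an unnamed transcript (0.936), Ly49si2 (0.932) and Grk3 (0.911). Hp was most like an unnamed probe (0.938), Pgm3 (0.934) and Id1 (0.926), and Tfrc most like Ddx20 (0.907), an unnamed probe (0.885) and an unnamed transcript (0.882). Among the 9 themselves the closest pair was Fth1 and Ftl1 (r = 0.987), and Hp and Slc11a1 ran the most opposite ways (r = −0.57).

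Beyond these 9, 76 further genes of heme and iron biology were listed, 75 were on the array and 70 were tested. These lists, too, were chosen with earlier results of these data known. Their counts and adjusted p-values are therefore not independent of that choice. In TRKA-TGF versus TRKA, 10 of the 70 were called higher and 11 lower (30.0%, against 26.4% of all genes), with a median difference of 0.52 against 0.19 over all genes. In TRKA versus p75, 16 were called higher and 7 lower (32.9%, against 35.7% of all genes), with a median of 0.17 against −0.01 over all genes. A fit of these 2 populations alone, which share a slide, called 12 higher and 2 lower. That fit called 5067 of all 20571 genes, against 7352 in the fit of all arrays. TRKA versus CD90 gave 17 higher and 7 lower (34.3%, against 34.9%). TRKA-TGF versus CD90 gave 15 higher and 2 lower (24.3%, against 14.9%), and 11 to 14 were called on leaving out 1 array. A fit within their slide called 18 higher and 2 lower. That fit called 4183 of all 20571 genes, against 3069 in the fit of all arrays. TRKA-TGF versus p75 gave 16 higher and 3 lower (27.1%, against 15.1%), and CD90 versus p75 gave 5 higher and 2 lower (7 of 70, against 7.25% of all genes). The shares of all genes just given are also the background for the shorter lists below.

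**Figure D5:**
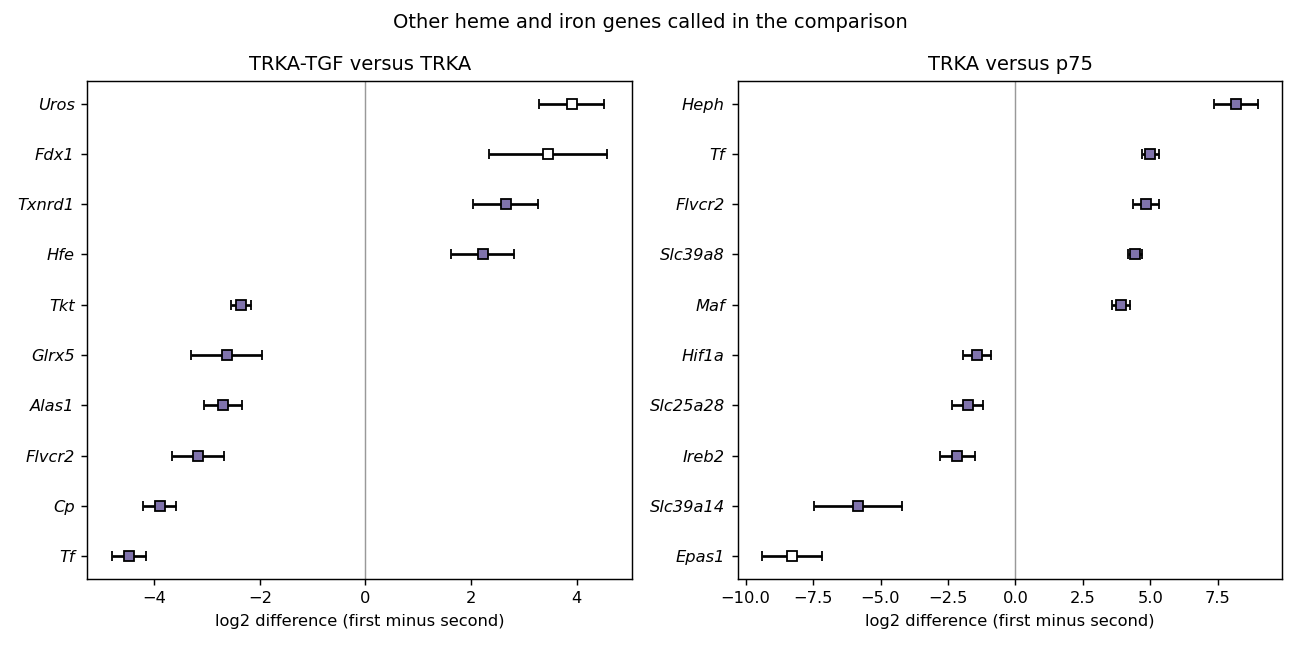
Heme and iron genes named by size among those called in TRKA-TGF versus TRKA (left) and TRKA versus p75 (right); x axis: log2 difference, first population minus second; squares are the fitted difference, bars its SE, and open squares mark genes not above background in one of the populations. Tf, Cp, Flvcr2 and Alas1 lie below 0 on the left, at −4.48 to −2.70, and Tf and Flvcr2 lie near 5 on the right.

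Iron transport genes outside the 9 were called in both directions. Of 11 tested, 0 were called higher and 3 lower in TRKA-TGF versus TRKA, where 26.4% of all genes were called. In TRKA versus p75, 4 were called higher and 1 lower, where 35.7% of all genes were called. These calls were kept under the 4 other scalings. Tf, the iron carrier transferrin, averaged 0.05 ± 0.37 in TRKA-TGF, 4.53 ± 0.15 in TRKA, −3.94 ± 0.66 in CD90 and −0.47 ± 0.33 in p75 cells (SD, n = 4 each). It fell by 4.48 in TRKA-TGF versus TRKA (limma, Benjamini-Hochberg adjusted p = 5.34e-07) and rose by 5.002 in TRKA versus p75 (limma adjusted p = 6.05e-08). Cp, the ferroxidase ceruloplasmin, averaged −1.10 ± 0.30 in TRKA-TGF and 2.79 ± 0.21 in TRKA cells and fell by 3.90 (limma adjusted p = 1.41e-06).

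Heph, a membrane ferroxidase that works beside ferroportin, averaged 2.08 ± 0.06 in TRKA-TGF, 1.61 ± 1.25 in TRKA, −1.96 ± 0.85 in CD90 and −6.55 ± 1.83 in p75 cells (SD, n = 4 each). It was higher in TRKA-TGF than in CD90 by 4.05 (limma adjusted p = 0.00320) and in TRKA than in p75 by 8.17 (limma adjusted p = 3.65e-06). Heph was above background on 2 p75 arrays, and its TRKA versus p75 difference was 5.68 with normexp. Slc39a8, a metal importer, was higher in TRKA than in p75 by 4.42 (limma adjusted p = 2.97e-08). Slc39a14, an importer of the same family, differed by −5.83 there (limma adjusted p = 0.0128), or −3.03 with normexp, and was above background on 1 TRKA array.

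Heme transport and breakdown genes were called higher in 4 of 9 and lower in 0 in TRKA versus p75, and in 0 and 1 in TRKA-TGF versus TRKA. Of the 4, only Flvcr2 stayed called with the percentile over probes above background on all arrays, and 2 stayed called with quantile normalization. Flvcr2, a transporter of the FLVCR family, averaged 0.15 ± 0.61 in TRKA-TGF and 3.32 ± 0.58 in TRKA cells (SD, n = 4 each) and fell by 3.17 (limma adjusted p = 0.000312). It was higher in TRKA than in p75 cells by 4.83 (limma adjusted p = 4.42e-06). Slc48a1, which moves heme out of lysosomes, was higher in TRKA-TGF than in CD90 by 3.33 (limma adjusted p = 0.0131). Hebp1, a heme-binding protein, was higher in TRKA than in CD90 by 3.56 (limma adjusted p = 0.00245).

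Heme synthesis was mixed, with 2 of 8 genes called higher and 2 lower in TRKA-TGF versus TRKA, and 1 and 0 in TRKA versus p75. With quantile normalization 2 of the 4 calls in TRKA-TGF versus TRKA were kept. Alas1, the enzyme of the first step, averaged 2.50 ± 0.31 in TRKA-TGF and 5.20 ± 0.07 in TRKA cells (SD, n = 4 each) and fell by 2.70 (limma adjusted p = 0.000116). Uros, a later enzyme, was at background on all TRKA arrays and at least 10.9-fold higher in TRKA-TGF (limma adjusted p = 0.000418). Its fitted difference of 3.90 was 2.36 with quantile normalization and 1.66 with normexp. Fech, which inserts the iron, was lower in TRKA than in CD90, with a difference of −4.83 (limma adjusted p = 0.0195) that was lost without TRKA replicate 2, 3 or 4 and with normexp (−1.97, adjusted p = 0.0761). It was above background on 1 TRKA array.

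Iron storage and sensing genes were called higher in 2 of 12 and lower in 1 in TRKA-TGF versus TRKA, and in 0 and 2 in TRKA versus p75. Ireb2, an iron sensor that binds messenger RNAs such as those of ferritin and Tfrc, was lower in TRKA than in p75, with a difference of −2.15 (limma adjusted p = 0.0197, lost without TRKA replicate 3 or p75 replicate 4). Hfe, a partner of the transferrin receptor, was higher in TRKA-TGF than in TRKA by 2.22 (limma adjusted p = 0.0144), and with quantile normalization by 0.76 (adjusted p = 0.327). Pcbp2, an iron chaperone, was lower in TRKA-TGF than in p75, with a difference of −1.005 (limma adjusted p = 0.00347). Bmp6, a ligand that raises hepcidin in liver, was at background in both TRKA populations and at least 7.20-fold lower in TRKA-TGF than in CD90 (limma adjusted p = 0.0214, lost on leaving out any of 5 of the 8 arrays), and its fitted difference of −5.05 was −2.17 with normexp.

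Genes of mitochondrial iron and iron-sulfur clusters were called higher in 3 of 11 and lower in 2 in TRKA-TGF versus TRKA, and in 1 and 2 in TRKA versus p75. With quantile normalization 2 of these 5 and 1 of these 3 calls were kept. Glrx5, an assembly factor, fell by 2.63 in TRKA-TGF versus TRKA (limma adjusted p = 0.0104). Fdx1, a ferredoxin, was at least 4.41-fold higher in TRKA-TGF than in TRKA cells (limma adjusted p = 0.0361), a call lost with normexp (adjusted p = 0.128) and without any of 6 arrays. Slc25a28, a mitochondrial iron importer, differed by −1.77 in TRKA versus p75 (limma adjusted p = 0.0286, and 0.0682 with quantile normalization), a call also lost without TRKA replicate 3 or p75 replicate 1 or 4. With the percentile over probes above background on all arrays it differed by −2.66.

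Regulators were called higher in 3 of 10 and lower in 2 in TRKA versus p75, and in 1 and 1 in TRKA-TGF versus TRKA, of which 1 was kept with quantile normalization. Maf, a transcription factor, was higher in TRKA than in p75 by 3.90 (limma adjusted p = 8.05e-07). Spic, which red pulp macrophages need in the mouse, averaged 1.72 ± 0.53 in TRKA-TGF and was higher than in p75 by 6.32 (limma adjusted p = 0.0142). Epas1, a hypoxia-inducible factor, was at background in TRKA cells and at least 113-fold lower there than in p75 cells (limma adjusted p = 5.79e-05), with a fitted difference of −8.27 that was −4.77 with normexp. Hif1a differed by −1.42 in TRKA versus p75 (limma adjusted p = 0.0444, lost on leaving out any of 7 of the 8 arrays), and by −2.31 with the percentile over probes above background on all arrays.

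Targets of NRF2, the oxidant-sensing factor that also drives Hmox1, were called higher in 2 of 9 and lower in 1 in TRKA-TGF versus TRKA, and in 3 and 0 in TRKA versus p75. Txnrd1, thioredoxin reductase, averaged 0.71 ± 0.32 in TRKA-TGF and −1.94 ± 1.46 in TRKA cells (SD, n = 4 each; limma adjusted p = 0.00596). Tkt, transketolase, averaged 4.18 ± 0.18 in TRKA-TGF and 6.54 ± 0.17 in TRKA cells (limma adjusted p = 1.81e-06), a difference of −2.36 that was −1.53 with quantile normalization. Gclc, a subunit of the enzyme that limits glutathione synthesis, was higher in TRKA-TGF than in p75 by 3.18 (limma adjusted p = 2.52e-05), and Srxn1, sulfiredoxin, by 3.37 (limma adjusted p = 0.0118).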

How the data were processed

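The levels analysed came from 16 Agilent rat arrays of 1 colour. Per the labels' protocols, messenger RNA was isolated on beads, amplified as cDNA by a global PCR and labelled with Cy3; such amplification can widen differences between scarce transcripts. The deposited scanner files hold background-subtracted spot intensities, per the file headers, made with Agilent Feature Extraction 10.7.3.1 (10.5 in the submitters' processing notes). The authors also deposited log2 values of the same arrays, whose scale and centring are not stated; they ran with slope 1.00 against quantile-normalized signals centred on each probe's median (r = 0.999999), with column medians of −0.03 to 0.19, and served as an alternative.

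Levels were log2 processed signal minus the array's 75th percentile over averaged probes that were not controls. Taking that percentile over spots was run first and replaced after its output was seen. Spots that the scanner software marked as outliers were left out. Of 30367 probes, 23695 that were well above background on at least 4 of 16 arrays were kept, and a gene took its kept probe with the highest mean. Names came from RefSeq accessions (18355 probes), symbols or synonyms (3180) or the files (8832).

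One mean per population was fitted to all 16 arrays with limma 3.58.1 in R 4.3.3, with empirical Bayes moderation and Benjamini-Hochberg adjustment over 20571 genes; calls needed an adjusted p under 0.05. The fit was checked on simulated data with known changes, where it did not recover every changed gene; a first criterion on the share recovered was not met and was replaced by criteria on slope, false calls and order of recovery. A bound (at least N-fold) used, in a population not above background, the higher of each array's lowest signal above background and the probe's own. The number of arrays limits the precision.

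The 9 genes, the pathway lists and the marker lists were chosen with earlier results of these data known. Further genes were named by a fixed rule: per comparison, up to 6 called pathway genes higher and 6 lower by size of the difference, and for each of the 9 genes the 3 with the highest correlation of level. A few genes that the rule names are not reported here. Cpox, Hpx, Ltf, Bach2 and Gclm were on the array but did not pass the filter, and Flvcr1 was not tested.

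Equal replicate numbers were not taken as pairs: the labels do not tie them, and deviations from population means correlated between same-numbered arrays at −0.03 to 0.04. Alternatives were other background corrections, normalizations, filters, probe choices and variance models, a replicate block, the compared populations alone, and leaving out each array.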

Additional observations from a re-analysis of the deposited data

Results flagged for a closer look

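Cd163 on CD90 replicate 2 stood at −3.13, far from the other CD90 arrays, which stood at −8.49 to −8.19 and were not above background. Of 36 sets of 4 arrays tested (9 genes in 4 populations), this was the 1 set with an array that far from the rest, and chance flags about 1 in 20.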

How the results depend on the processing

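Over all alternatives, 266 of 271 recomputed counts stayed within a factor of 1.5 of the reported count. Of 1134 recomputed differences of the 9 genes, 1060 moved by less than the larger SD between replicates of the populations compared. Many of these could not move further. Leaving out 1 array of a population shifts its mean by less than its SD. The replicate block and the fits of the compared populations alone leave the differences as they were. The share is therefore no measure of how stable the differences are. The sign of a called difference turned for 1 gene: Fth1 in TRKA-TGF versus TRKA was 0.0936 with quantile normalization, 0.0535 with the 75th percentile over probes above background on all arrays and 0.0933 with the authors' values. Pathway genes called in CD90 versus p75 came to 11 with normexp (7 reported), in TRKA versus p75 to 14 in the fit of these 2 populations alone (23 reported), and in TRKA versus CD90 to 15 with array weights (24 reported). In TRKA-TGF versus CD90 they came to 11 to 14 on leaving out 1 array (17 reported), and to 11 without CD90 replicate 1 and without TRKA-TGF replicate 4. Fits of 2 populations alone went both ways, with 28 pathway genes called in TRKA-TGF versus p75 (19 reported). Causes were not tested. On leaving out 1 array, pathway counts ranged from 14 to 21 in TRKA-TGF versus TRKA, 19 to 25 in TRKA versus p75, 21 to 26 in TRKA versus CD90, 14 to 16 in TRKA-TGF versus p75 and 5 to 8 in CD90 versus p75.

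Among calls of all genes in TRKA-TGF versus TRKA, 51.1% were higher, against 38.8% with normexp, 39.8% with quantile normalization and 82.9% with the percentile over probes above background on all arrays. In TRKA versus p75 the share was 52.7%, against 66.9%, 60.4% and 20.7% in the same order, and in TRKA versus CD90 52.3%, against 62.7%, 59.9% and 18.7%. Of the called pathway genes, 13 of 21 in TRKA-TGF versus TRKA and 15 of 23 in TRKA versus p75 were called under all 4 other scalings. The authors' values nearly repeat quantile normalization, so these are not 4 separate checks. Pcbp2 in TRKA versus CD90 changed sign. With the percentile over spots, added after seeing the data, 5 of the 9 genes were called in TRKA-TGF versus TRKA (6 reported).

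The replicate numbers share only a number. With a replicate block, 7 of the 9 genes were called in TRKA-TGF versus p75 (8 without the block), and the other comparisons kept their counts of the 9. With the block, pathway genes called came to 20 in TRKA-TGF versus TRKA (21 without the block), 24 in TRKA versus p75 (23), 25 in TRKA versus CD90 (24), 14 in TRKA-TGF versus CD90 (17), 17 in TRKA-TGF versus p75 (19) and 6 in CD90 versus p75 (7). In TRKA-TGF versus TRKA every array correlated best with its own number, as a hint from the data, and in the other comparisons 1 of 4 did. Levels near background limit the TRKA values most, since fewer spots were above background there.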
